A study of Mus musculus with 14 samples.

Results

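Metallothioneins and the transporters and oxidases that move zinc and copper were examined as 9 genes, namely the metallothioneins Mt1 and Mt2, the ZnT exporters Slc30a1 and Slc30a10, the ZIP importers Slc39a4, Slc39a5 and Slc39a14, the copper oxidase Cp and the copper pump Atp7b. They were chosen by gene name, through the RefSeq accession of their array probes, from 19751 named genes on 39429 probes, and each of the 9 had 1 probe. Liver RNA came from CD-1 mice, an outbred strain, of both sexes, aged 3 wk, 4 wk or 8 wk, giving the 6 groups M3, M4, M8, F3, F4 and F8 (M, male, F, female, with the age in weeks). Nothing in the labels names a treatment or a genetic change. Each RNA sample was a pool of RNA prepared from the livers of 5 mice at 3 wk and 6 mice at 4 and 8 wk. Pairs of groups were hybridized on 2-colour Agilent arrays in 7 comparisons, 3 of the sexes (M3/F3, M4/F4 and M8/F8), 2 of ages in males (M8/M3 and M8/M4) and 2 of ages in females (F8/F3 and F8/F4), each on 2 arrays that held separate pools with the dyes exchanged. Because M8 and F8 RNA each served in 3 comparisons, these are not independent of one another. Values below are log2 expression ratios of the first-named over the second-named group, with the array of replicate 1 given before that of replicate 2.

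Zinc is taken into the cytosol by ZIP (Slc39) proteins and removed from it by ZnT (Slc30) proteins. Metallothioneins are small cysteine-rich proteins that bind zinc and copper, and their genes are transcribed through the zinc sensor Mtf1, and also in response to glucocorticoids and inflammation. The liver is the main site of copper export to bile, by Atp7b, and of secretion of ceruloplasmin, the product of Cp.

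Between 55.2% and 77.2% of the spots of a channel were well above background, and 0 spots were saturated. The male over female ratios of Ddx3y, a Y-linked gene, lay between 5.80 and 7.24 on the 6 arrays that compared the sexes, and those of Xist, which is transcribed from the inactive X chromosome, lay between -6.67 and -5.10, so the labelled sexes and dyes held on every one of these arrays. Of the 9 genes, 8 were well above background in 28 of 28 channels, and Slc39a5 was so in 11 of 28. A call required an adjusted p below 0.05 in limma together with a ratio of more than 1.5 in either direction. By this rule Slc39a4 and Slc39a5, 2 of the 9 genes, had a call in 1 or more comparisons, beside 23.1% of all genes tested. In bulk liver RNA, fewer cells of a type and less RNA per cell cannot be told apart.

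At 8 wk Slc39a4 was higher in males than in females, and it was the only one of the 9 genes called between the sexes. It encodes ZIP4, a zinc importer best known from the intestine, and lies on chromosome 15 (76612383 to 76618506, RefSeq, GRCm38.p6). Its log2 ratio in M8/F8 was 0.69 and 0.90, a fitted value of 0.80 (SE 0.09, n = 2 arrays, adjusted p = 0.00212). This call was 1 of 9 genes, where 6.41% of all genes tested were called in M8/F8.

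At the younger ages the same direction was measured with smaller ratios. The values were 0.28 and 0.22 in M3/F3, with a fitted value of 0.25 (adjusted p = 0.135). They were 0.35 and 0.29 in M4/F4, with a fitted value of 0.32 (adjusted p = 0.0605). Slc39a4 was thus higher in the male pool on 6 of 6 arrays that compared the sexes, though the 3 wk and 4 wk differences did not pass the test.

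The 2 sexes were also followed with age. In F8/F3 the ratios of Slc39a4 were -0.44 and -0.36 (fitted -0.40, adjusted p = 0.0286), which passed the p threshold but not the ratio threshold. In F8/F4 they were -0.32 and -0.25 (fitted -0.29, adjusted p = 0.0903). In M8/M3 they were 0.02 and 0.37 (fitted 0.20, adjusted p = 0.231), and in M8/M4 0.05 and 0.36 (fitted 0.21, adjusted p = 0.204). The ratios were below 0 on all 4 female arrays and above 0 on all 4 male arrays. The difference of the age ratio between the sexes was tested itself, and was 0.60 (SE 0.13, adjusted p = 0.055) from 3 to 8 wk and 0.49 (SE 0.13, adjusted p = 0.152) from 4 to 8 wk, neither of which passed. The first passed with the replicate number as a block (adjusted p = 0.0389), with the shared pools entered as a covariance (adjusted p = 0.0449), with dim probes left out of the fit (adjusted p = 0.0375) and without M8/F8 replicate 1 or 2 (adjusted p = 0.0348 each). It was not called under any other setting tried, nor with any other array left out.

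The order of the groups is shown by the log2 signal of the Slc39a4 probe, normalized over the 28 channels and averaged for each replicate number. M8 was at 14.23 and 14.51, M3 at 14.28 and 14.17, and M4 at 14.19 and 14.09. F3 was at 13.89 and 13.94, F4 at 13.78 and 13.75, and F8 at 13.44 and 13.55. The lowest male value lay above the highest female value, the 3 female groups were separate from each other, and M8 overlapped M3, which overlapped M4.

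**Figure D1:**
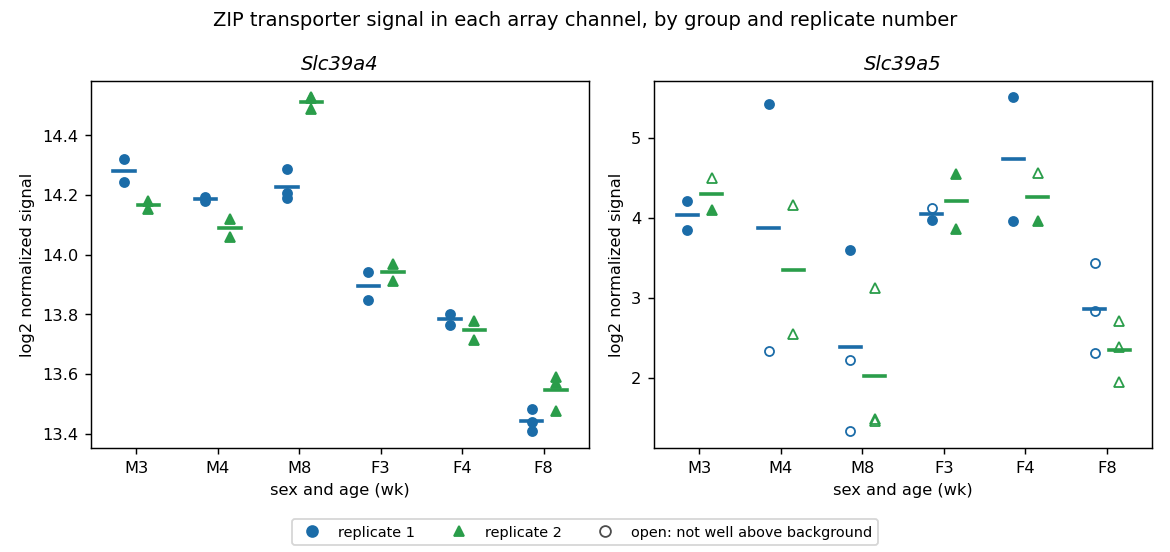
Log2 normalized signal (y axis) of the Slc39a4 and Slc39a5 probes in each of the 28 array channels, by sex and age (x axis), with replicate 1 as circles, replicate 2 as triangles, short lines for the mean of a group and replicate number, and open symbols for channels not well above background. Slc39a4 signals of the 3 male groups all lie above those of the 3 female groups, with F8 lowest at 13.44 and 13.55, while Slc39a5 signals were well above background in 11 of 28 channels.

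Of the lists examined beside Slc39a4, markers of Kupffer cells, the resident macrophages of liver, were lower in M8/F8 for 3 of 6 genes, with summed log2 signals of 14.30 to 14.66 in M8 and 14.96 to 15.10 in F8. The 7 hepatocyte markers with a probe held 0 calls in M8/F8, with a median ratio of 0.01. Markers of bile duct cells had a higher summed signal in males, as Slc39a4 had, but single markers and the changes with age differed. Their summed log2 signal was 12.71 to 13.19 in M3 and 12.43 to 12.58 in F3, 12.48 to 13.11 in M4 and 11.84 to 12.10 in F4, and 12.44 to 12.69 in M8 and 12.06 to 12.15 in F8, so the sexes did not overlap at any age. Of these 6 genes, 1 was called higher in M4/F4 and 0 in M3/F3 and M8/F8. The median ratios were 0.21 at 3 wk, 0.35 at 4 wk and 0.22 at 8 wk. On each M8/F8 array and on M3/F3 replicate 1, 3 of the 6 were above 0, and 5 or 6 were on the other sex arrays. With age their median was -0.55 in M8/M3 and -0.26 in M8/M4, where Slc39a4 was above 0. It was -0.51 in F8/F3 and 0.03 in F8/F4, where Slc39a4 was below 0. The part of cell composition in the ratio of Slc39a4 was not tested. Over the 14 arrays, the ratios most like those of Slc39a4 among 3536 called genes were those of Tff3, F2r and Ikbkg, each with a Pearson r of 0.965. These arrays share pools, so the correlations are given as a description.

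Slc39a5 encodes ZIP5, a zinc importer of the basolateral membrane, and lies on chromosome 10 (128395927 to 128401276). It was lower at 8 wk than at 3 wk in both sexes and than at 4 wk in females, but its signal was so dim that only the direction and a lower bound can be given for the change. Its ratios in M8/M3 were -1.90 and -2.92 (fitted -2.41, SE 0.24, adjusted p = 0.00129). The F8/F3 ratios were -1.77 and -2.38 (fitted -2.08, adjusted p = 0.00226) and those of F8/F4 -1.20 and -1.27 (fitted -1.24, adjusted p = 0.0164). All 6 arrays of these comparisons gave a lower value at 8 wk.

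The 8 wk group was not well above background on either array of these 3 comparisons. For the bounds, the dim group was given, on each array, the lowest signal among probes well above background or its own signal, whichever was higher. By this measure Slc39a5 was at least 1.14-fold higher in M3 than in M8 (adjusted p = 0.00129), at least 1.26-fold higher in F3 than in F8 (adjusted p = 0.00226) and at least 1.29-fold higher in F4 than in F8 (adjusted p = 0.0164). In F8/F4 the probe's own signal in F8 was the higher on both arrays, so that bound is the measured ratio itself. These bounds are on the scale of normexp-corrected intensities, whereas the p-values beside them are those of the deposited ratios, where Slc39a5 passed the filter through the younger group alone. In M8/M4, with ratios of -1.18 and -1.58 (fitted -1.38, adjusted p = 0.0108), neither group was well above background on either array and no call was made.

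These calls depended on how the arrays were corrected and normalized. With normexp correction and loess in place of the deposited processed ratios, the fitted values of Slc39a5 were -0.21 in M8/M3 (adjusted p = 0.109), -0.33 in F8/F3 (adjusted p = 0.0157) and -0.36 in F8/F4 (adjusted p = 0.0102), none of which passed the ratio threshold. With the pools shared between comparisons entered as a covariance, the fitted values did not move, but the adjusted p was 0.0569 in F8/F3 and 0.247 in F8/F4. The F8/F4 call also needed both arrays, with an adjusted p of 0.142 without F8/F4 replicate 1 and 0.0763 without F8/F4 replicate 2.

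Between the sexes Slc39a5 was not called at any age, and in M8/F8 the ratios were 0.21 and 0.87 (fitted 0.54, adjusted p = 0.213). The genes with the most similar ratios over the 14 arrays were Pmp22 (r = 0.957), Hells (r = 0.954) and Ezh2 (r = 0.949), of which Hells is a chromatin remodeller and Ezh2 a histone methyltransferase. Since Slc39a5 was well above background in 11 of 28 channels, this order carries little weight.

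Each of these calls was 1 of the 9 genes in its comparison, where 17.8% of all genes tested were called in M8/M3, 11.7% in F8/F3 and 6.00% in F8/F4. Markers of some other cells were lower at 8 wk in the same comparisons. Of the 6 erythroid markers with a probe, 4 were lower in each of the 4 age comparisons, with summed log2 signals of 15.97 to 16.38 in the 3 wk and 4 wk groups and 15.11 to 15.58 in the 8 wk groups, and all 6 passed the filter on dim signals in these comparisons. Of the other 2, Alas2, the erythroid enzyme of haem synthesis, was called higher in M8/M3 (fitted 1.37) and M8/M4 (fitted 0.98), and the transcription factor gene Klf1 was not called. Of the 6 stellate cell markers, 3 were lower in M8/M3 and 2 in each other age comparison, with summed log2 signals of 15.95 to 16.49 in the younger groups and 15.22 to 15.63 in the 8 wk groups. Of the 6 neutrophil markers 5 were lower in M8/M3 and in F8/F3, 4 in F8/F4 and 2 of 5 that passed the filter in M8/M4, with summed log2 signals of 12.27 to 12.35 in M3, 13.11 to 13.46 in F3, 10.83 to 11.29 in M4, 11.52 to 11.95 in F4, 10.34 to 10.96 in M8 and 10.61 to 11.13 in F8. The part of these cells in the Slc39a5 ratios was not tested.

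**Figure D2:**
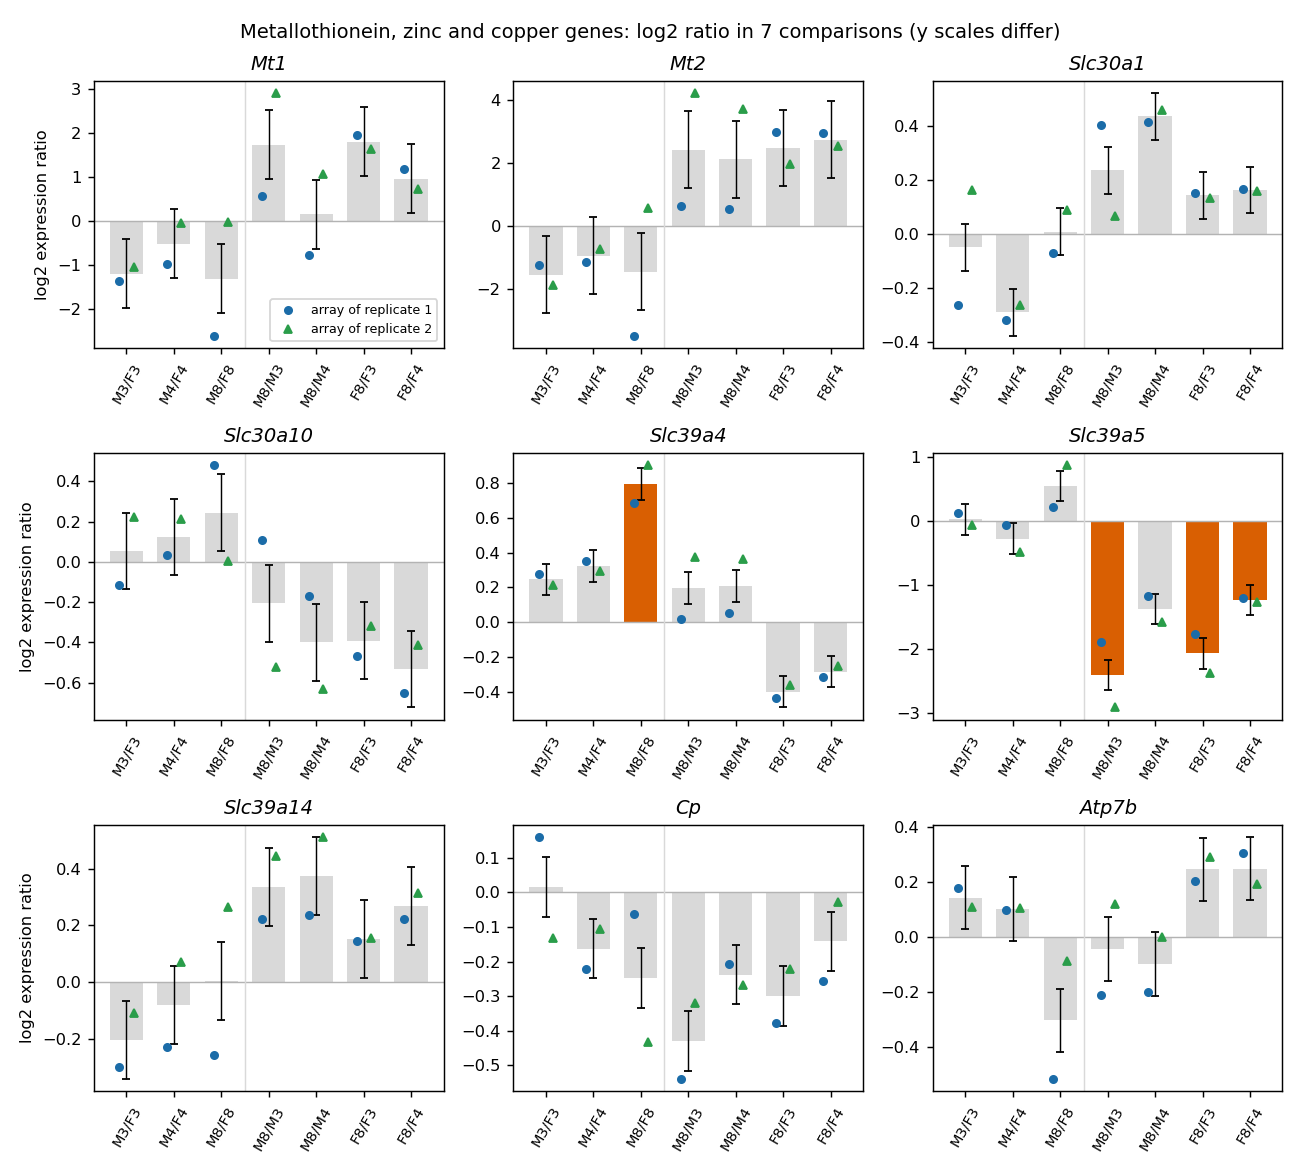
Log2 expression ratio (y axis, scaled separately for each gene) of the 9 genes in the 7 comparisons (x axis), with the array of replicate 1 as a circle, that of replicate 2 as a triangle, the fitted value as a bar and its standard error as a line, and called comparisons in orange. The calls are Slc39a4 in M8/F8 and Slc39a5 in M8/M3, F8/F3 and F8/F4, whereas Mt1 and Mt2 had ratios of up to 2.91 and 4.20 on single arrays, with wide errors, and were not called.

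The metallothioneins had the largest ratios of any of the brightly expressed genes among the 9 and were called in none of the 7 comparisons. On most arrays they were lower in male than in female liver and higher at 8 wk than before. The 2 genes are neighbours on chromosome 8, Mt2 at 94172618 to 94173567 and Mt1 at 94178883 to 94180327 (GRCm38.p6). Metal response elements are the sites through which Mtf1 acts on metallothionein promoters, and they are shown because these 2 genes and Slc30a1 are the best known targets of that factor. The core searched was TGCACNC or TGCGCNC on both strands, in windows of 300 bases around the transcript start of RefSeq's promoter table, which has entries for 7 of the 9 genes. Capitals mark each core as it reads on the printed + strand, 5′ to 3′. The Mt2 sequence holds the 250 bases before its start, chr8:94172368-94172617. The Mt1 stretches are chr8:94179055-94179083 and chr8:94179089-94179117, and the Slc30a1 stretches are chr1:191906727-191906755 and chr1:191906800-191906828.
Mt2: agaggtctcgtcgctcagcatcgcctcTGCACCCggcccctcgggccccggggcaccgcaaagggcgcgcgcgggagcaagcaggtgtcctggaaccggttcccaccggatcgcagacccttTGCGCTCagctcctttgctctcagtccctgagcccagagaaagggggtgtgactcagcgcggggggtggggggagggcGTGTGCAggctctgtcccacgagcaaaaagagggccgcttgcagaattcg
Mt1, before the start: cggtcccgctgTGCACACtggcgctccag
Mt1, from the start: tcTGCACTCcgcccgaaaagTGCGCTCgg
Slc30a1, before the start: acgggggttccGAGTGCAaagcaaagttt
Slc30a1, after the start: gcctccgggccGAGCGCAgtcgccgcgga

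In the 300 bases there were 4 cores at Mt2, 3 at Mt1 and 2 at Slc30a1. There were also 3 at Slc30a10, of which 2 overlap on opposite strands, and 1 at Atp7b. Slc39a5 had 1 core at one of its 2 starts, and neither of the 2 Cp starts had one. At least 1 core was found in 25.7% of all 32851 windows of this length and at least 3 in 1.97%. The start used for Mt1 lies 206 bases inside the gene's annotated span and that of Slc30a1 84 bases inside. An antioxidant element (TGACNNNGC, 12.4% of windows) was found once at Mt2, once at Slc30a1 and 2 times at the other start of Slc39a5, and a STAT element (TTCNNNGAA, 8.3% of windows) at none of the 7 genes.

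The Mt1 ratio was below 0 on 6 of 6 arrays that compared the sexes, but on 2 of them, at -0.04 and -0.02, it was close to 0. Its ratios were -1.35 and -1.03 in M3/F3 (fitted -1.19, SE 0.78, adjusted p = 0.423). They were -0.98 and -0.04 in M4/F4 (fitted -0.51, adjusted p = 0.854), and -2.60 and -0.02 in M8/F8 (fitted -1.31, adjusted p = 0.37). At 3 wk the arrays lay close together, and at 8 wk 1 array gave a large difference and the other none.

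With age, Mt1 was higher at 8 wk on 7 of 8 arrays. The ratios were 1.96 and 1.65 in F8/F3 (fitted 1.80, adjusted p = 0.199) and 1.20 and 0.74 in F8/F4 (fitted 0.97, adjusted p = 0.546). In males they were 0.57 and 2.91 in M8/M3 (fitted 1.74, adjusted p = 0.215) and -0.76 and 1.07 in M8/M4 (fitted 0.16, adjusted p = 1). The female arrays lay within 0.45 of each other in each comparison, and the male arrays were 2.34 and 1.83 apart.

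Mt2 was also lower in males on most arrays. Between the sexes they were -1.23 and -1.86 in M3/F3 (fitted -1.54, SE 1.22, adjusted p = 0.534), -1.15 and -0.73 in M4/F4 (fitted -0.94, adjusted p = 0.789), and -3.47 and 0.57 in M8/F8 (fitted -1.45, adjusted p = 0.571). It was lower in the male pool on 5 of 6 arrays, and the exception was replicate 2 at 8 wk.

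With age, Mt2 was higher at 8 wk on 8 of 8 arrays. The ratios in females were 2.98 and 1.96 in F8/F3 (fitted 2.47, adjusted p = 0.262) and 2.94 and 2.53 in F8/F4 (fitted 2.73, adjusted p = 0.211). In males they were 0.64 and 4.20 in M8/M3 (fitted 2.42, adjusted p = 0.272) and 0.53 and 3.69 in M8/M4 (fitted 2.11, adjusted p = 0.349). The 95% confidence interval of the F8/F4 ratio ran from -0.15 to 5.62, so neither no change nor a very large one lay outside it.

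The wide errors of both genes came from all 14 arrays, which shared 1 estimate of the spread for each probe. The residual SD was 1.18 for Mt1 and 1.84 for Mt2, against a median of 0.108 over 12870 genes, and these ranked 13 and 2 from the largest. For the other 7 genes it was 0.13 to 0.36. When the 2 arrays were instead averaged with weights from the scanner's own error, at an unadjusted p below 0.0001, Mt1 was called in 5 comparisons and Mt2 in 6, which leaves out the spread between pools. No share of all genes called by this average is given, so whether these counts are unusual cannot be told. In F8/F4 the weighted average gave Mt2 a value of 2.71 with an unadjusted p of 2.76e-32. Where the arrays lay far apart the weighted values were smaller than the fitted ones, with Mt2 at -0.37 in M8/F8, 1.30 in M8/M3 and 1.21 in M8/M4, and Mt1 at -0.78 in M8/F8 and 1.23 in M8/M3.

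The levels show which pools differed. The log2 signal of Mt1 was 16.96 and 16.21 in F8, 15.78 and 15.62 in F4, and 14.98 and 14.79 in F3, so the 3 female ages were separate. It was 13.55 and 13.82 in M3, 14.84 and 15.54 in M4, and 14.20 and 16.38 in M8. M3 was lowest without overlap, and M8 replicate 1 lay below both M4 pools, whereas M8 replicate 2 lay within the range of F8.

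For Mt2 the signal was 16.66 and 15.72 in F8, 13.70 and 13.37 in F4, and 13.62 and 13.95 in F3. It was 12.27 and 12.26 in M3, 12.49 and 12.73 in M4, and 13.06 and 16.31 in M8. F8 stood above F3 and F4, which overlapped, M4 stood above M3, and the 2 M8 pools lay on either side of the younger females.

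**Figure D3:**
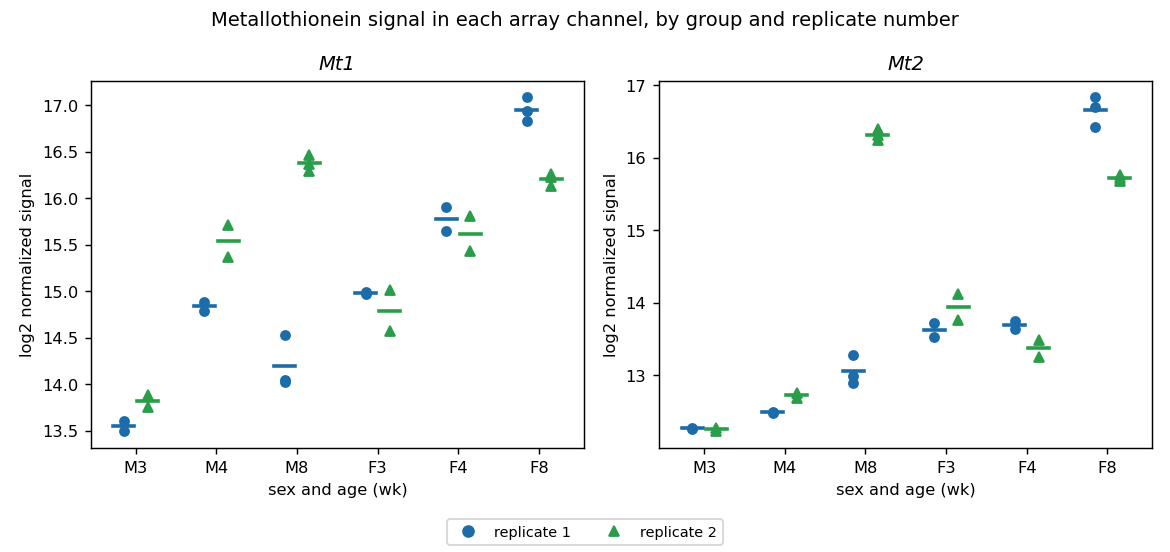
Log2 normalized signal (y axis) of the Mt1 and Mt2 probes in each array channel by sex and age (x axis), with replicate 1 as circles, replicate 2 as triangles and short lines for the mean of a group and replicate number. The channels of one replicate number lie close together, while the 2 replicates of M8 are far apart, at 14.20 and 16.38 for Mt1 and 13.06 and 16.31 for Mt2.

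The design allowed a check of whether this gap lay between pools or between arrays. The age ratio of males minus that of females, from 4 arrays of the age comparisons, should equal the sex ratio at 8 wk minus that at the younger age, from separate arrays, if arrays of one replicate number held the same pools. For Mt2 from 3 wk, the age arrays gave -2.34 in replicate 1 and 2.25 in replicate 2, and the sex arrays gave -2.23 and 2.43. For Mt1 from 3 wk, the age arrays gave -1.38 and 1.26, and the sex arrays -1.25 and 1.02. Within a replicate number the estimates differed by at most 0.34 for Mt1 and 0.18 for Mt2, while the replicates differed in sign. The change of metallothionein with age therefore ran higher in females by replicate 1 and higher in males by replicate 2, and the fitted difference between the sexes from 3 to 8 wk was -0.06 (95% confidence interval -2.69 to 2.56, adjusted p = 1) for Mt1 and -0.05 (-4.13 to 4.04, adjusted p = 1) for Mt2.

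For 6 of the other 7 genes the 2 estimates differed by at most 0.28, and over 12870 genes the SD of the difference was 0.15 for 3 wk and 0.13 for 4 wk. Slc39a5 was the exception, with a mismatch of 1.67. Its signal was near background on most of these arrays.

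**Figure D4:**
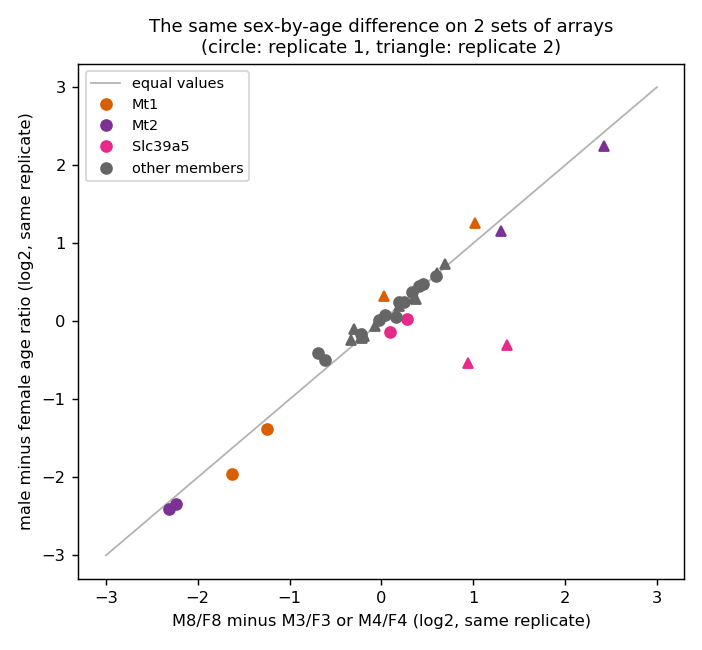
For each of the 9 genes, younger age and replicate number, the male minus female age ratio (y axis, log2) against the M8/F8 ratio minus the M3/F3 or M4/F4 ratio (x axis, log2), with replicate 1 as circles, replicate 2 as triangles and a line of equal values. Mt1 and Mt2 lie near the line, on the negative side in replicate 1 and on the positive side in replicate 2, and the Slc39a5 points of replicate 2 lie off it.

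Genes that respond to signals known to act on metallothioneins were read beside them. Of 8 glucocorticoid-induced genes other than Mt1 and Mt2, 2 were lower in males in M3/F3 (median ratio -0.50), 1 in M4/F4 (median -0.36) and 2 in M8/F8 (median -0.36), and the median over all genes tested was within 0.01 of 0 in each. Pck1, which encodes a gluconeogenic enzyme, was at -1.21 and -1.18 in M3/F3. Fkbp5, which encodes a co-chaperone of the glucocorticoid receptor, was at -1.21 and -0.94 in M8/F8. Of the 8 genes, however, 0 and 2 were above 0 on the M3/F3 arrays and 2 and 3 on the M8/F8 arrays. With age, 2 were called higher and 1 lower in M8/M3, and 1 higher and 1 lower in M8/M4 and in F8/F4. In F8/F3 0 were called, with a median of -0.07. By array, the median of the 8 genes was 0.05 and 0.19 in M8/M3, 0.00 and 0.43 in M8/M4, and -0.46 and -0.21 in M8/F8. Of 19 acute phase genes, 3 were higher and 1 lower in M8/M3, 2 were higher in F8/F3, 1 was higher in M8/M4, 1 was lower in M8/F8, and 0 were called in M3/F3, M4/F4 and F8/F4. By array, the median of the 19 was -0.05 and 0.37 in M8/M3, -0.06 and 0.14 in M8/M4, and -0.06 and -0.15 in M8/F8. In the comparisons with the younger males both medians were thus higher on the array of replicate 2, as were Mt1 and Mt2. In M8/F8, by contrast, the acute phase median was lower on that array. The female age arrays also gave higher medians in replicate 2, whereas Mt1 and Mt2 were lower in that replicate. From 3 wk the female acute phase median went from -0.13 to -0.03 between replicates, and the glucocorticoid one from -0.10 to -0.03. From 4 wk these pairs were -0.03 and 0.17 for acute phase genes, then 0.04 and 0.24 for glucocorticoid genes. Clock genes, which follow the time of day, also moved with age, with 4 of 10 higher and 2 lower in M8/M3 and in M8/M4, 5 higher and 1 lower in F8/F3, and 4 higher and 3 lower in F8/F4. Their median ratio was 0.35 to 0.88 in the age comparisons, and 0 were called between the sexes. Neutrophil markers were lower in males for 5 of 6 genes in M3/F3 (median -0.78) and 2 of 5 in M4/F4 (median -0.56), and 0 of 4 were called in M8/F8. The part of these signals and cells in the metallothionein values was not tested.

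The ratios of Mt1 and Mt2 had a Pearson r of 0.930 over the 14 arrays. The genes most like Mt1 among 12843 genes well above background in all comparisons were Mme (r = 0.979), Meiob (r = 0.973) and Ap1ar (r = 0.955), and those most like Mt2 were Nfx1 (r = 0.972), Slc25a32 (r = 0.964) and Fes (r = 0.958). These were listed after the metallothionein values had been seen.

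The exporters moved little. Slc30a1 encodes ZnT1, the zinc exporter of the plasma membrane (chromosome 1, 191906697 to 191913248). Its ratios were above 0 on 8 of 8 age arrays and largest in M8/M4, at 0.41 and 0.46 (fitted 0.43, SE 0.09, adjusted p = 0.0174), which was under the ratio threshold. The M8/M3 ratios were 0.40 and 0.07 (adjusted p = 0.132), and those of the females were 0.15 and 0.14 from 3 wk and 0.17 and 0.16 from 4 wk. In M4/F4 they were -0.32 and -0.26 (adjusted p = 0.0732). The log2 signal was lowest in M4, at 10.79 and 10.66, below every other group.

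Slc30a10 encodes ZnT10, an exporter known chiefly for manganese (chromosome 1, 185454848 to 185468762). Its ratios were below 0 on 7 of 8 age arrays, with -0.65 and -0.41 in F8/F4 (fitted -0.53, SE 0.19, adjusted p = 0.125). The F8/F3 ratios were -0.47 and -0.32, those of M8/M4 -0.17 and -0.63, and those of M8/M3 0.11 and -0.52. F8 had the lowest log2 signal, at 10.65 and 10.69, and did not overlap another group, yet no comparison passed the test.

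Slc39a14 encodes ZIP14, through which hepatocytes take up zinc, iron and manganese and which is induced in inflammation (chromosome 14, 70303467 to 70351452). Its ratios were above 0 on 8 of 8 age arrays, the largest being 0.24 and 0.51 in M8/M4 (fitted 0.37, SE 0.14, adjusted p = 0.134). In M8/F8 they were -0.26 and 0.26, on either side of 0. The signals of M8 and F8 overlapped, and so did those of M3, M4 and F4 from one neighbour to the next.

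Cp encodes ceruloplasmin, the copper-carrying ferroxidase of plasma (chromosome 3, 19956933 to 20009750). It was lower at 8 wk on 8 of 8 age arrays, by small amounts. Its ratios in M8/M3 were -0.54 and -0.32 (fitted -0.43, SE 0.09, adjusted p = 0.0184), past the p threshold but not the ratio threshold. In F8/F3 they were -0.38 and -0.22 (adjusted p = 0.0665). M8 had the lowest log2 signal, at 15.83 and 15.95, and overlapped F8. The highest were M3, at 16.37 and 16.42, and F3, at 16.26 and 16.51, which overlapped.

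Atp7b encodes the copper-transporting ATPase that is mutated in Wilson disease (chromosome 8, 21992783 to 22060074). Its largest fitted ratio was -0.30 in M8/F8, from arrays at -0.52 and -0.09 (SE 0.12, adjusted p = 0.147). In females the age ratios were 0.20 and 0.29 from 3 wk and 0.30 and 0.19 from 4 wk, and in males they were -0.21 and 0.12 in M8/M3. F8 was the highest group without overlap, at 6.96 and 6.80 in log2 signal.

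In the remaining comparisons none of the 9 genes was called by limma. In M3/F3 1 gene had an unadjusted p below 0.05 and the error-weighted average called 2, and limma called 0.517% of all genes tested. In M4/F4 the same counts were 2 and 1, with 1.58% of all genes called by limma. In M8/M4 they were 4 and 1, with 10.8% called by limma. The test of whether the age ratio differed between the sexes also called 0 of the 9. From 3 to 8 wk 1 gene had an unadjusted p below 0.05 and the error-weighted average called 0. From 4 to 8 wk both counts were 1. Limma called 3.37% of all genes in the first test and 1.31% in the second. Each share in this paragraph is of limma calls. No share over all genes is given for the unadjusted p or the error-weighted average, so their counts cannot be set against these shares. The median fitted ratio of the 9 genes was -0.16 in M4/F4, 0.01 in M3/F3, 0.00 in M8/F8 and 0.14 to 0.20 in the age comparisons, where the median over all genes tested was at most 0.02.

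A wider list of 40 other zinc and copper genes was read in the same fit, and 37 of them were well above background in at least 1 comparison. Of these, 4 were called in 1 or more comparisons, namely Heph, Slc39a11, Sco2 and Slc30a8, beside 23.1% of all genes tested, and the median ratio of the list was between -0.01 and 0.07 in the 7 comparisons. None was called in a comparison of the sexes.

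Heph, which encodes hephaestin, the membrane-bound relative of ceruloplasmin, fell with age in all 4 age comparisons. Its ratios were -0.89 and -1.16 in M8/M3 (fitted -1.02, SE 0.05, adjusted p = 0.000146), and the fitted values were -0.87 in F8/F3, -0.66 in M8/M4 and -0.61 in F8/F4. The arrays of each comparison lay close together, and the sexes were alike within 0.15 in fitted age ratio from 3 wk (adjusted p of the difference 0.334). Erythroid, neutrophil and stellate cell markers were lower in the same comparisons, by the counts given above and with Alas2 higher in the males, and their part was not tested.

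Slc39a11, which encodes the intracellular importer ZIP11, rose in M8/M3, at 0.65 and 0.57 (fitted 0.61, SE 0.05, adjusted p = 0.00045). In F8/F3 it was at 0.28 and 0.02, and the difference between the sexes was 0.46 (SE 0.06, adjusted p = 0.0139), which was under the ratio threshold. In M8/F8 it was at 0.31 and 0.55 (adjusted p = 0.00155), also under that threshold. Without M8/M3 replicate 2 the fitted value in M8/M3 was 0.57 (adjusted p = 0.00714), below the ratio threshold as well.

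Sco2, which delivers copper to cytochrome c oxidase, rose in M8/M3, at 0.88 and 0.61 (fitted 0.74, SE 0.18, adjusted p = 0.0333). This call was lost in 8 of the 14 runs that left out an array, those without either array of M8/M3, M3/F3, M8/M4 or F8/F3 (adjusted p = 0.0524 to 0.26). Slc30a8, which encodes the ZnT8 of insulin granules, was called higher in both female age comparisons. It was not well above background in F3 or F4 and passed the filter through F8 alone, so it was at least 1.17-fold higher in F8 than in F3 (adjusted p = 0.0122) and at least 1.20-fold higher in F8 than in F4 (adjusted p = 0.0434). In both cases the probe's own signal in the dim group was the higher, so these bounds are the measured ratios on the normexp scale. The F8/F3 call was lost without F8/F3 replicate 1 (adjusted p = 0.0721) or replicate 2 (adjusted p = 0.107). The F8/F4 call was lost in 11 of the 14 runs that left out an array, and the 3 runs that kept it were those without M8/M3 replicate 1, M8/M3 replicate 2 or F8/F4 replicate 2. With normexp and loess, whose scale the bounds are on, both calls were lost (adjusted p = 0.15 and 0.0921), as they were with the shared pools entered as a covariance (adjusted p = 0.146 and 0.33). With the replicate number as a block the F8/F4 call was lost (adjusted p = 0.0638).

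**Figure D5:**
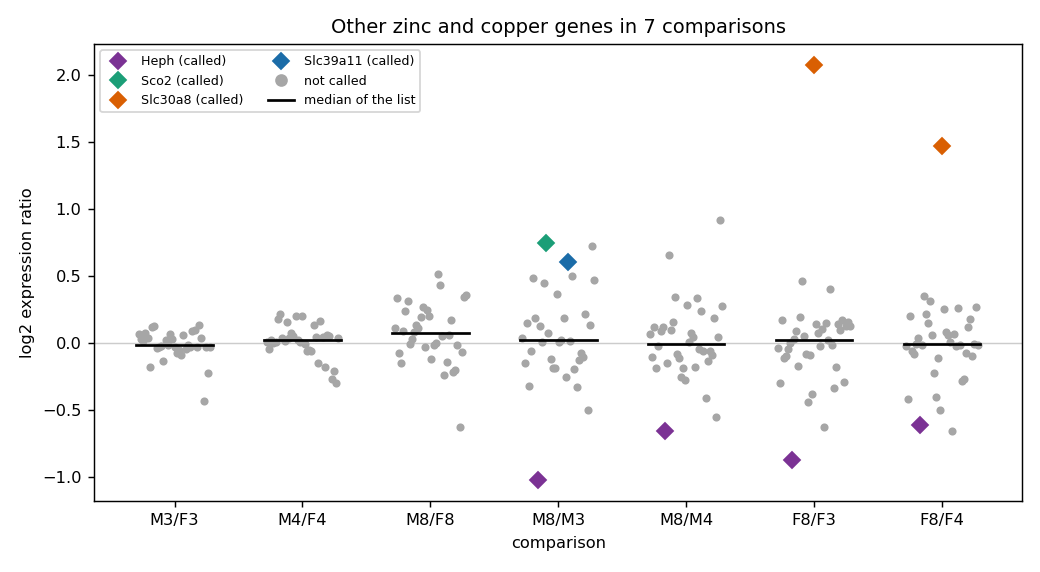
Fitted log2 expression ratio (y axis) of the other zinc and copper genes that were well above background in each of the 7 comparisons (x axis), with called genes as coloured diamonds, uncalled genes as grey points and the median of the list as a black line. The medians lie between -0.01 and 0.07, Heph is the called gene below 0 in all 4 age comparisons, and the Slc30a8 points rest on dim signals in F3 and F4.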

How the data were processed

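Liver RNA pools of CD-1 mice were compared on 14 arrays of 2 colours, with groups, replicate numbers and dyes taken from the labels. The authors extracted the arrays with Agilent Feature Extraction 10.7.1.1 and normalized each array by the linear and LOWESS methods. They deposited, for each spot, the log10 ratio of red over green and the background, raw and processed intensity of each channel. The deposited series table held the same log10 ratios (largest difference 0). For M3/F3 the study's methods give the dyes of both replicates in the opposite order to the labels. The labels were used, since the Ddx3y and Xist ratios had the direction they give.

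The deposited log10 ratios were put on the log2 scale and oriented with the male or the 8 wk group as numerator. Control spots and non-uniform spots (at most 10 per array) were left out, and spots of one probe were averaged. Genes were named through RefSeq accessions (26055 of 39429 probes), and the brightest probe stood for a gene. A linear model with 7 comparisons and 1 dye term per probe was fitted over 14 arrays with limma 3.58.1 in R 4.3.3, with files read by data.table (1.17.8), with Benjamini-Hochberg adjustment across every probe in the 7 comparisons together. Calls needed a group well above background on both arrays. The fit was tested on simulated data. Signal levels were the processed intensities, quantile normalized over 28 channels. Lower bounds came from normexp-corrected (offset 50) intensities. The number of arrays, 2 per comparison, limits the precision. The arrays lay on 4 slides scanned on 2 days, and each comparison spanned 2 slides.

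All 9 genes were named throughout, and of the wider list every gene called. Members, lists and motifs were chosen with earlier results of these data known. Sequences, coordinates and names are RefSeq's for GRCm38.p6. The study's methods name the pools of replicates 1 and 2 apart for 1 comparison. Over 12870 genes the replicate difference on the age arrays had an r of 0.894 with that on the sex arrays for 3 wk and 0.889 for 4 wk, so the number was taken to pair the arrays in an alternative fit. The alternatives tried were the background correction, the array model, dye term, replicate block, slide, error weighting, adjustment, filters, ratio threshold, source table, choice of probe and leaving out each array.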

Additional observations from a re-analysis of the deposited data

How the results depend on the processing

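The results were recomputed under 14 other settings and after leaving out each of the 14 arrays. No called value changed sign in these runs. With normexp and loess, 0 of the 9 genes were called in M8/M3, F8/F3 and F8/F4. With shared pools as a covariance, 0 were called in F8/F3 and F8/F4, and the sex difference from 3 to 8 wk was called for 1, Slc39a4. With the replicate block, that difference was also called for 1 gene, again Slc39a4 (adjusted p = 0.0389), the Slc30a8 call in F8/F4 was lost (adjusted p = 0.0638), no other call of the 9 genes changed, the other calls of the wider list held, and calls over all probes and comparisons went from 13091 to 13163. Leaving dim probes out of the fit also gave Slc39a4 as 1 such gene, and having no filter on them gave 1 gene in M8/M4. The error-weighted average called 2 genes in M3/F3 and M8/F8, 1 in M4/F4 and M8/M4, 3 in each of F8/F4, F8/F3 and M8/M3, and 1, Mt2, for the sex difference from 4 to 8 wk. The share of all genes that it called is not given. Without the ratio threshold, 2 were called in F8/F3 and M8/M3 and 1 in M8/M4. The count of other zinc and copper genes was 4, and it became 7 with 6 group means, 7 with error weights and 18 without the ratio threshold. The cause of each change was not tested.

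When single arrays were left out, the count in F8/F4 was 0 to 1 (0 without F8/F4 replicate 1 or 2), the sex difference from 3 to 8 wk was 0 to 1 (1, Slc39a4, without M8/F8 replicate 1 or 2), and the other zinc and copper genes were 2 to 5 (2 without M8/M3 replicate 2 or either F8/F3 array). The counts for the other comparisons stayed as they were. Signals near background limited Slc39a5 and Slc30a8, and the spread of 2 pools limited Mt1 and Mt2.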
